A study of Arabidopsis thaliana with 20 samples.

Results

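Cytosine methylation in Arabidopsis thaliana is written and kept by a small set of enzymes, and 6 genes of this set were followed here through every library of the series. They were chosen by locus, with no measured value in the rule, and all 6 were found among the 58844 features of the deposited files, 27445 of them nuclear genes. MET1 (AT5G49160) is the maintenance methyltransferase that copies CG methylation onto the new DNA strand after replication. CMT3 (AT1G69770) and CMT2 (AT4G19020) are chromomethylases, which read methylated lysine 9 of histone H3: CMT3 mainly methylates CHG sites and CMT2 mainly CHH sites in long heterochromatic transposons (H is A, C or T). DRM2 (AT5G14620) is the de novo methyltransferase at the end of the RNA-directed DNA methylation pathway, and DRM1 (AT5G15380) is its close relative. DDM1 (AT5G66750) is no methyltransferase but a SWI2/SNF2 chromatin remodeller that gives these enzymes access to nucleosome-bound heterochromatin.

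RNA was measured in 20 libraries, 2 for each of 10 groups that cross 2 tissues with 5 genotypes. The tissues were meiocytes, the cells that enter meiosis, collected from floral buds of stages 9 to 10 as 300 to 400 cell masses per replicate, and seedlings aged 20 days, of which 4 to 5 plants were pooled. POL2A, the gene for the polymerising subunit of the replicative DNA polymerase epsilon, is mutated in pol2a-1 and in pol2a-2. The suvh2suvh9 double mutant is mutated in SUVH2 and SUVH9, methyl-DNA binding proteins that bring RNA polymerase V to its targets. The remaining genotypes were the triple mutant pol2a-1suvh2suvh9 and wild type (WT). Titles were followed for pol2a-2, although its genotype field reads pol2a-1. The labels do not say that the 2 seedling pools of a group were grown apart, so the p-values measure the spread between these samples, which may be technical. All plants grew at 20 degrees with 16 h of light.

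Total counts, in units of 1e6, ran from 11.9 to 34.5 per library. The meiocyte libraries held 3419 to 4109 CPM (counts per 1e6 counts of a library) summed over 10 meiocyte markers, against 14.0 to 44.5 CPM in seedling libraries. Transcripts of 9 photosynthesis genes summed to 291 to 1574 CPM in meiocytes and 51270 to 78948 CPM in seedlings, and those of 13 tapetum genes to 116 to 342 CPM in meiocytes and 4.18 to 38.2 CPM in seedlings. POL2A itself stood at 89.8 and 89.5 CPM in pol2a-1 meiocytes and 155 and 156 CPM in pol2a-2 meiocytes, against 236 and 165 CPM in WT meiocytes. SUVH9 was at or below 0.0591 CPM in every suvh2suvh9 and triple mutant meiocyte library, against 13.4 and 6.54 CPM in WT. SUVH2 kept 11.7 and 15.5 CPM in suvh2suvh9 meiocytes and 11.2 and 8.92 CPM in triple mutant meiocytes, against 41.5 and 38.4 CPM in WT meiocytes. In seedlings POL2A had 28.5 and 29.3 CPM in pol2a-1 and 30.6 and 65.9 CPM in pol2a-2, 1 library below and 1 above the 47.2 and 41.1 CPM of WT. Chloroplast genes took 0.0215 to 0.0443% of the counts in suvh2suvh9 and triple mutant seedlings, against 2.11 to 2.42% in pol2a-1, pol2a-2 and WT seedlings; in seedlings this share moved with the genotype, and library composition and genotype cannot be told apart. The pol2a-2 seedling libraries stood apart from each other for the genes described here. Replicate 1 over replicate 2 was 0.362 for MET1, 0.344 for CMT2, 0.574 for CMT3 and 0.587 for DDM1. Between these libraries 10.9% of all 22144 expressed genes differed by more than 2-fold. That share was 4.06 to 8.38% in the other seedling groups and 11.3 to 25.4% in meiocyte groups, with 20.0% in WT meiocytes. WT meiocyte replicate 1 over replicate 2 was 1.49 for MET1, 0.470 for DRM1 and 2.35 for DRM2. For CMT2, CMT3 and DDM1 it was 1.11, 0.963 and 1.27. The values of MET1, CMT2, CMT3 and DDM1 in pol2a-2 seedlings against WT are given with and without each pol2a-2 library. Some other results that rest on the pol2a-2 seedling libraries, such as the comparison of the POL2A mutants, are described with both only.

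In the TAIR10.1 annotation of RefSeq, MET1 lies on the plus strand at chr5:19932114-19938470 with 12 exons, CMT2 on the plus strand at chr4:10414428-10421265 with 23 exons, and CMT3 on the minus strand at chr1:26248118-26253687 with 21 exons. DRM1 (plus strand, chr5:4991347-4994924) and DRM2 (minus strand, chr5:4715105-4718704) have 10 exons each, and DDM1 (plus strand, chr5:26648897-26653191) has 16. Their annotated proteins run from 624 residues in DRM1 and 626 in DRM2 to 1534 in MET1. None of the 6 shares an exonic base with another gene, and none holds a 100-base exonic window that occurs again in the genome, so their counts are not split with a copy. Because the related pair DRM1 and DRM2 went opposite ways between the tissues, the 150 bases from 250 to 101 before each annotated start are shown, 5′ to 3′ on the gene's strand, for DRM1 at chr5:4991097-4991246 and for DRM2 at chr5:4718805-4718954. The annotated start of DRM1 is its start codon, so its leader is not annotated and the 100 bases next to it are left out for both genes.
DRM1: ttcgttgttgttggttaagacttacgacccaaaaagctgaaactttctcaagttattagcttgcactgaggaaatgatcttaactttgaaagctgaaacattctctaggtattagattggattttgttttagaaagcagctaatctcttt
DRM2: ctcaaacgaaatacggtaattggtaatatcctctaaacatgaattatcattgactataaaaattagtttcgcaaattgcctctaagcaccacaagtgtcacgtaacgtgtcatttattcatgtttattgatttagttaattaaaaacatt
Of 4 letter forms of an E2F site, the element of many S-phase genes, CMT3 alone among the 6 genes held a form. The stretch searched ran from 250 bases before to 50 bases after each gene's start. The letters searched, on both strands, were TTTCCCGC, TTTGGCGC, TTTCGCGC and TTTGCCGC, and the match, in capitals, begins at base 23 of the gene, inside the window chr1:26253647-26253676 on the minus strand.
CMT3: aaacccatcacTTTGGCGCttatgtgacgc
Among 27443 promoters of the same length, 1.76% held any of these letters and 0.434% held TTTGGCGC, so a match is a description of this window and not a site. Other forms were not searched. The CMT2 window holds TTTGGCGG, and the DDM1 window holds CTTCCCGC, which differs from TTTCCCGC in its first letter.

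In WT, MET1, CMT3, DDM1 and DRM1 were higher in meiocytes than in seedlings, DRM2 was lower, and CMT2 differed least and did not pass. In the plot of CPM by library, every meiocyte library lay above every seedling library for MET1, CMT3, DRM1 and DDM1. In bulk samples such as seedlings, fewer cells of a type and less RNA per cell cannot be told apart.

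**Figure D1:**
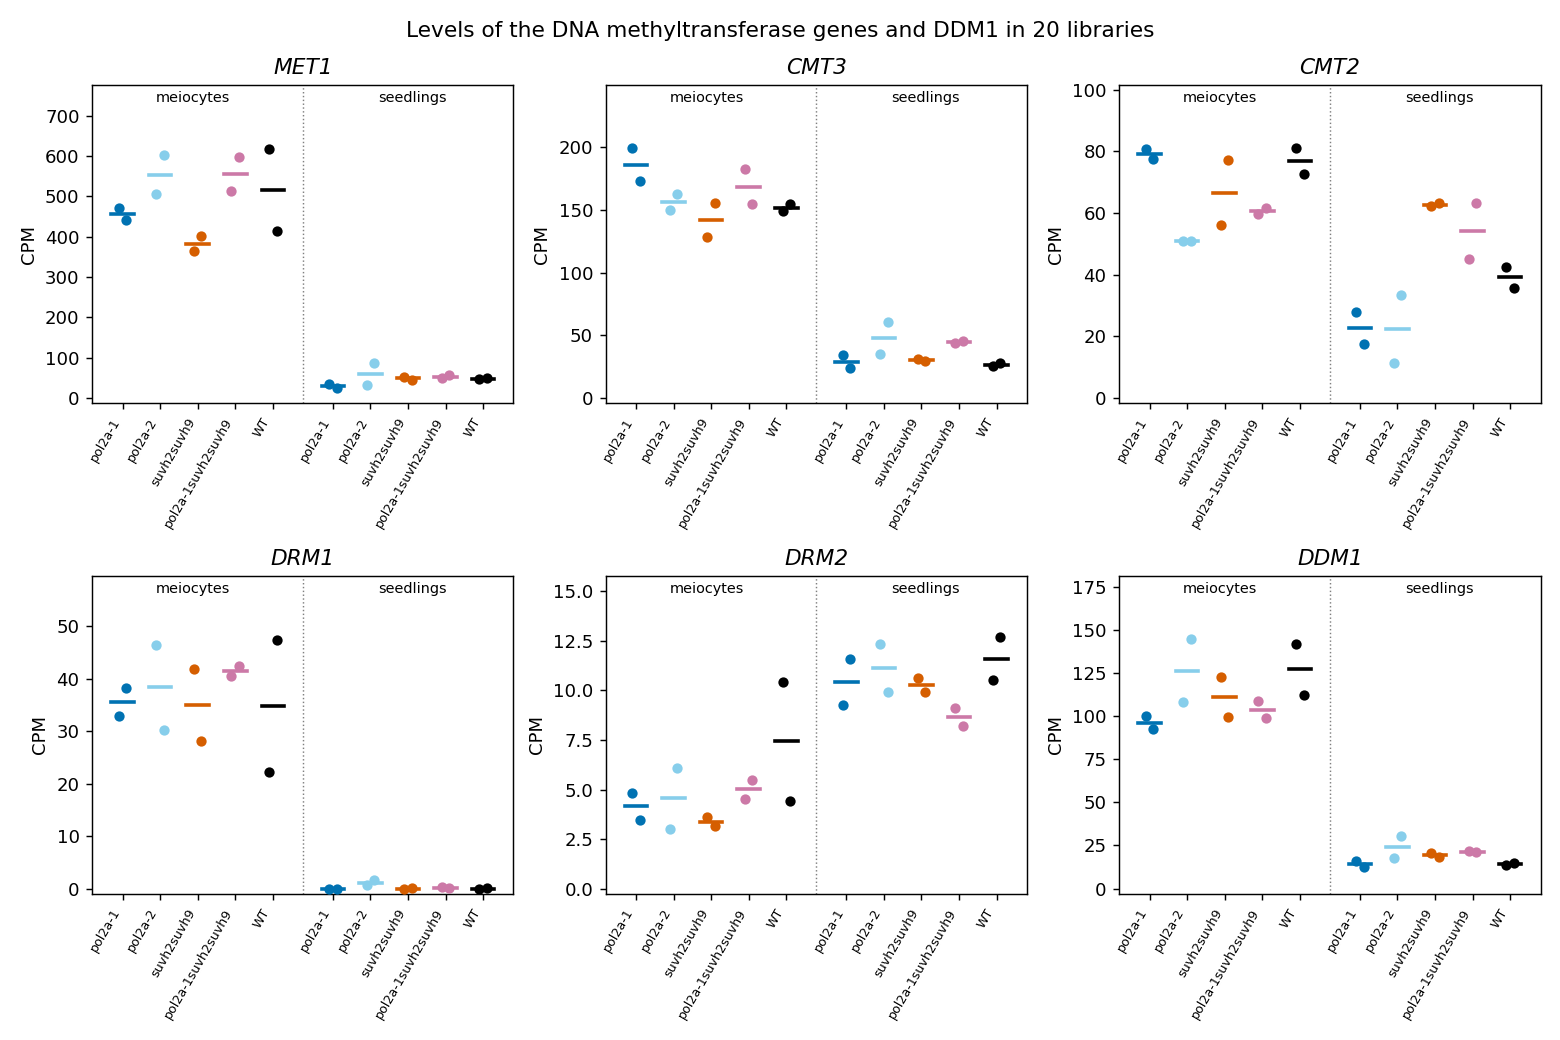
CPM of each gene on a linear axis, scaled per panel, with each library as a point and the mean of 2 libraries as a line, meiocytes left of seedlings and mutants left of WT. MET1 spans 364 to 617 CPM in meiocytes and 25.0 to 87.0 CPM in seedlings, while DRM2 spans 3.02 to 10.4 CPM in meiocytes and 8.19 to 12.7 CPM in seedlings.

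The maintenance enzyme MET1 had 617 and 415 CPM in WT meiocytes and 47.4 and 48.6 CPM in WT seedlings. Both meiocyte libraries lay far above both seedling libraries, at 8.58 times the seedling level (log2 difference 3.10 ± 0.33, SE; edgeR's quasi-likelihood test, adjusted p = 2.56e-07). CMT3, which keeps CHG methylation, had 149 and 155 CPM in WT meiocytes and 25.2 and 27.7 CPM in WT seedlings, again without overlap. It was 4.64-fold higher (2.21 ± 0.24, edgeR adjusted p = 2.71e-07). DDM1, the remodeller, had 142 and 112 CPM in WT meiocytes against 13.6 and 14.7 CPM in WT seedlings, a 7.22-fold difference (2.85 ± 0.24, edgeR adjusted p = 1.59e-08). All 3 genes were also higher in meiocytes in each of the 4 mutants.

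DRM1 was close to silent in seedlings. WT seedlings gave 0 and 1 counts, 1 count in 61275151, whereas WT meiocytes gave 22.2 and 47.3 CPM, 1366 counts in all. The ratio of pooled levels was 2214, with a 95% exact interval of 397 to 87509 that covers counting error only (edgeR log2 difference 10.35 ± 0.76, adjusted p = 5.87e-09). Among nuclear genes in this comparison, 0.745% had a larger log2 difference than DRM1, against 12.2% for MET1, 13.9% for DDM1 and 19.7% for CMT3. In pol2a-1 seedlings no DRM1 count was seen, so pol2a-1 meiocytes were at least 320-fold higher, taking 3 counts in the whole group as the floor. The ratios were 1915 (343 to 75698) in suvh2suvh9, 233 (122 to 511) in the triple mutant and 30.1 (22.5 to 41.2) in pol2a-2, where seedlings held 48 DRM1 counts.

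DRM2, the main enzyme of RNA-directed methylation, went the other way. It had 10.4 and 4.44 CPM in WT meiocytes and 10.5 and 12.7 CPM in WT seedlings; meiocyte replicate 1 almost reached the lower seedling library, while replicate 2 lay well below. The log2 difference was -0.98 ± 0.37 (edgeR adjusted p = 0.0229). This call rests on few libraries: it was lost without WT meiocyte replicate 2 (-0.54, edgeR adjusted p = 0.227), without WT seedling replicate 2 (-0.87, 0.104), with only the groups compared (-1.07, 0.0558) and with library totals as the only scaling (-0.65, 0.127). In the mutants DRM2 had 3.02 to 6.09 CPM in meiocytes and 8.19 to 12.4 CPM in seedlings, with no overlap. Its log2 differences there were -1.50 in pol2a-1, -1.52 in pol2a-2, -1.93 in suvh2suvh9 and -1.27 in the triple mutant, each past the threshold (edgeR adjusted p from 0.000247 to 0.00617); with library totals the triple mutant's value was -0.79 (0.0727) and did not pass.

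CMT2, the CHH methyltransferase of heterochromatin, differed least between tissues in WT, with 81.1 and 72.8 CPM in meiocytes and 42.6 and 35.5 CPM in seedlings. Both meiocyte libraries were higher, but the log2 difference of 0.66 ± 0.33 did not pass (edgeR adjusted p = 0.0766). Although its 95% interval by a normal approximation was 0.02 to 1.31, this difference did not reach an unadjusted edgeR p under 0.05 either. It passed with both pol2a-2 seedling libraries left out of the fit (0.66, edgeR adjusted p = 0.0109), without either one of them (0.012 and 0.0121), with only the groups compared (0.57, 0.0342) and with library totals (0.98, 0.0162). CMT2 was higher in meiocytes in pol2a-1 (1.62 ± 0.34, edgeR adjusted p = 0.000391) and in pol2a-2 (0.94 ± 0.33, edgeR adjusted p = 0.0188). The call in pol2a-2 was lost without pol2a-2 seedling replicate 1 (0.38, adjusted p = 0.223), pol2a-2 meiocyte replicate 2 (0.90, 0.0574) or pol2a-1 meiocyte replicate 1 (0.79, 0.0523), and with only the groups compared (0.85, 0.155). In suvh2suvh9 and the triple mutant the values were -0.25 ± 0.33 and -0.31 ± 0.33 and did not pass (edgeR adjusted p = 0.501 and 0.39). The suvh2suvh9 value passed with a gene length offset (-0.60, edgeR adjusted p = 0.0194). The test of these differences against the WT difference is given with the seedling results.

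Of the 6 genes, 5 passed in WT, 4 higher and 1 lower, where 76.8% of the 24418 features tested passed. The counts were 6 in pol2a-1 (75.4% of features), 6 in pol2a-2 (75.0%), 5 in suvh2suvh9 (75.6%) and 5 in the triple mutant (75.5%). About as large a share of all features passed, so the count says little of these genes. The median log2 difference of the 6 genes in WT was 2.53, against -0.20 over all features. Scaling moved that overall median to -0.33 with DESeq2 size factors and 0.03 with library totals, and it turned the sign of none of the genes that passed.

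**Figure D2:**
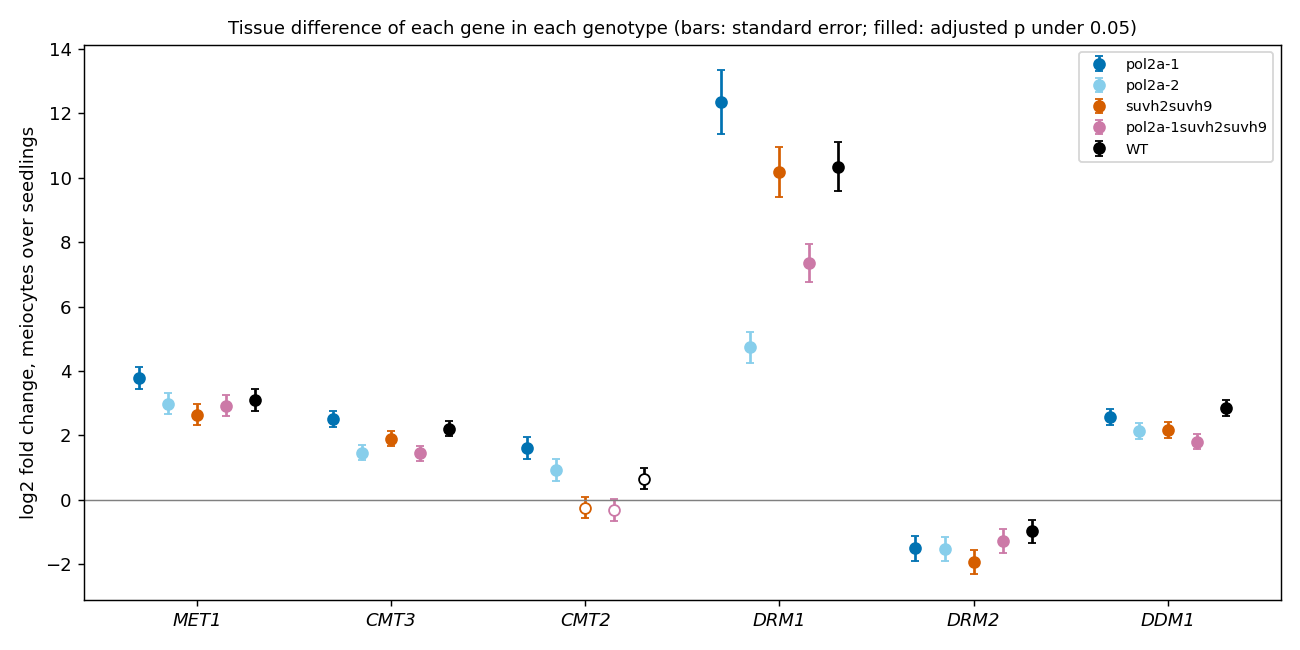
Log2 difference, meiocytes over seedlings, of each gene in each genotype; points are edgeR estimates, bars are 1 SE and filled points have adjusted p under 0.05. DRM1 reaches 10.35 in WT and DRM2 lies at -0.98, while CMT2 runs from -0.31 to 1.62.

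Levels per exonic length (CPM per kilobase) put the genes on a common scale. In meiocytes MET1 was first, CMT3 or DDM1 next and DRM2 last, and WT meiocytes averaged 102 ± 28.3 CPM per kilobase of MET1, 49.5 ± 1.31 of CMT3, 45.9 ± 7.61 of DDM1, 17.8 ± 1.37 of CMT2, 17.6 ± 8.99 of DRM1 and 3.19 ± 1.82 of DRM2 (SD, n = 2). The libraries of CMT3 and DDM1 overlapped there, as did those of CMT2 and DRM1. WT seedlings averaged 9.49 ± 0.166 CPM per kilobase of MET1, 9.05 ± 1.16 of CMT2, 8.62 ± 0.584 of CMT3, 5.10 ± 0.272 of DDM1, 4.97 ± 0.658 of DRM2 and 0.00945 ± 0.0134 of DRM1. Seedlings thus had MET1, CMT2 and CMT3 at levels whose libraries overlapped between neighbours, with DDM1 and DRM2 below them and DRM1 last.

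As a share of the summed CPM per kilobase of the 6 genes, MET1 made up 37.1 to 48.7% in meiocytes and 18.7 to 28.3% in seedlings. DRM2 took 0.578 to 1.75% of the sum in meiocytes, against 6.79 to 18.9% in seedlings. CMT2 took 4.63 to 8.96% in meiocytes and 8.21 to 33.3% in seedlings, and DRM1 took 4.40 to 11.1% in meiocytes and at most 1.31% in seedlings. Within the pair of DRM genes, DRM1 over DRM2 was 2.52 to 18.2 in the 10 meiocyte libraries (median 10.6) and at most 0.187 in the 10 seedling libraries. MET1 over DRM2 was 27.2 to 77.0 in meiocytes and 0.994 to 4.04 in seedlings. CMT3 over CMT2 was 2.58 to 4.52 in meiocytes, and its 0.649 to 4.28 in seedlings overlapped that range.

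**Figure D3:**
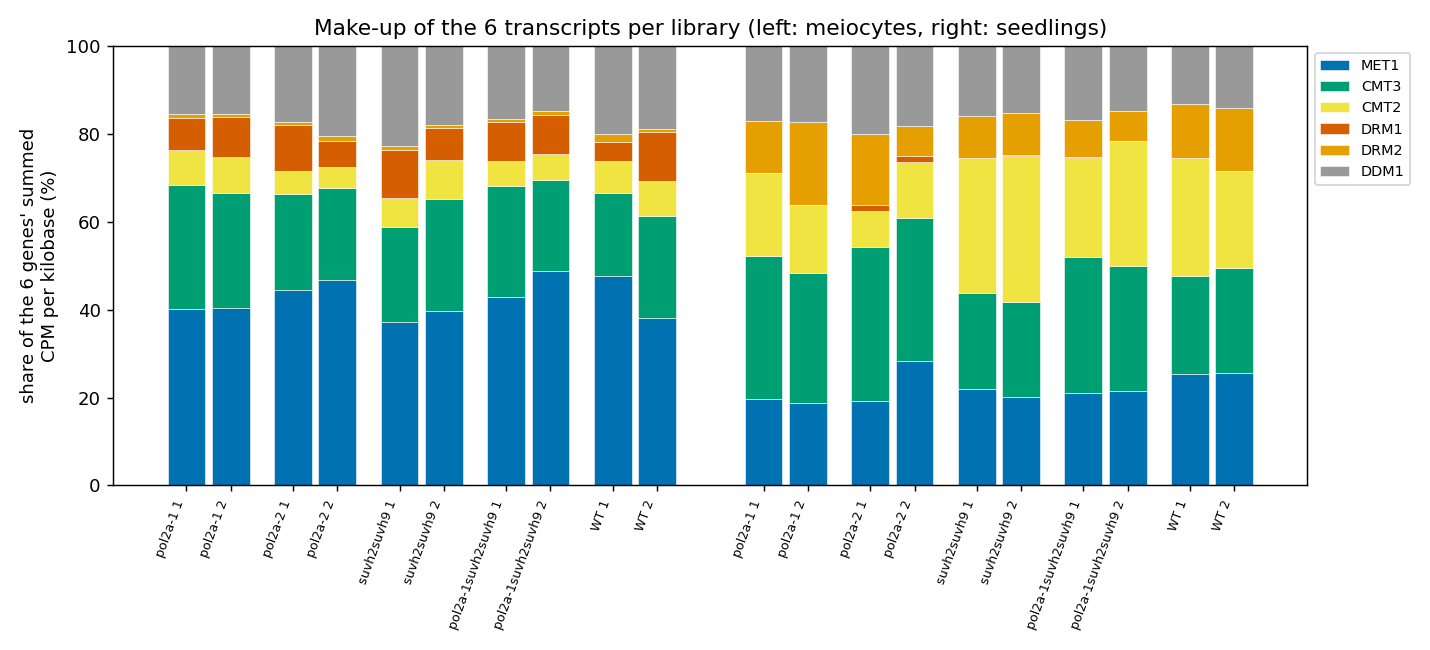
Share of each gene in the summed CPM per kilobase of the 6 genes, with 1 bar per library, meiocytes left of seedlings and mutants left of WT. MET1 holds 37.1 to 48.7% in meiocytes, and DRM1 holds 4.40 to 11.1% in meiocytes and at most 1.31% in seedlings.

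In meiocytes, no mutant moved any of the 6 genes past the threshold. By edgeR 0 of 6 passed in pol2a-1 against WT (0.646% of features passed), 0 in pol2a-2 (0.646%), 0 in suvh2suvh9 (0.00471%) and 0 in the triple mutant (0.0613%), so few features of any kind passed here. At an unadjusted p under 0.05 the counts were 0, 1, 2 and 1 in the same order of mutants, against 11.2, 10.4, 5.2 and 14.9% of features. DESeq2 also called 0 in each. The triple mutant against pol2a-1 (0.712% of features), against suvh2suvh9 (0.0377%) and the test of non-additivity, the triple mutant's effect minus those of its parents (0.193%), also gave 0 calls with edgeR and with DESeq2. At an unadjusted p under 0.05 they gave 1, 0 and 0 genes, against 14.7, 9.66 and 8.04% of features. The comparisons with WT share the WT libraries.

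CMT2 had the lowest adjusted p of the 6 genes in pol2a-2 and in the triple mutant. It had 51.0 and 50.8 CPM in pol2a-2 meiocytes and 59.5 and 61.6 CPM in triple mutant meiocytes, 80.6 and 77.3 CPM in pol2a-1 meiocytes, 56.1 and 77.2 CPM in suvh2suvh9 meiocytes, and 81.1 and 72.8 CPM in WT meiocytes. The pol2a-2 and triple mutant libraries lay below both WT libraries, and those of pol2a-1 and suvh2suvh9 overlapped WT. The log2 differences from WT were -0.67 ± 0.20 in pol2a-2 and -0.47 ± 0.20 in the triple mutant (edgeR adjusted p = 0.281 and 0.307). Between the POL2A mutants, pol2a-2 over pol2a-1, CMT2 stood at -0.72 ± 0.20 (edgeR adjusted p = 0.186) and was the 1 gene that DESeq2 called (adjusted p = 0.0499), where edgeR called 0 of 6 and 0.514% of features.

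MET1 had 364 and 401 CPM in suvh2suvh9 meiocytes, below the 617 and 415 CPM of WT meiocytes. WT replicate 2 lay close to the mutant, and the difference of -0.43 ± 0.20 did not pass (edgeR adjusted p = 0.947). In the other mutants MET1 stood between -0.16 and 0.03, with all 95% intervals within -0.54 to 0.41. CMT3 had 199 and 173 CPM in pol2a-1 meiocytes against 149 and 155 CPM in WT meiocytes, and its log2 difference of 0.31 ± 0.18 did not pass either (edgeR adjusted p = 0.554).

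DRM2 was estimated below WT in all 4 mutants, by values of -0.69 to -1.13, but none passed (edgeR adjusted p from 0.523 to 0.94). WT replicate 1 had 10.4 CPM, and replicate 2, at 4.44 CPM, lay within the mutants' 3.02 to 6.09 CPM. DRM1 had 28.1 to 46.4 CPM over the 8 mutant meiocyte libraries, inside the 22.2 to 47.3 CPM of WT, with log2 differences of -0.01 to 0.11. DDM1 had 92.6 to 145 CPM in the mutants and 142 and 112 CPM in WT, and its log2 differences were -0.42 to -0.08. For DRM1 the 95% interval of each mutant's difference lay within -0.67 to 0.78, so these libraries do not exclude changes inside it.

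**Figure D4:**
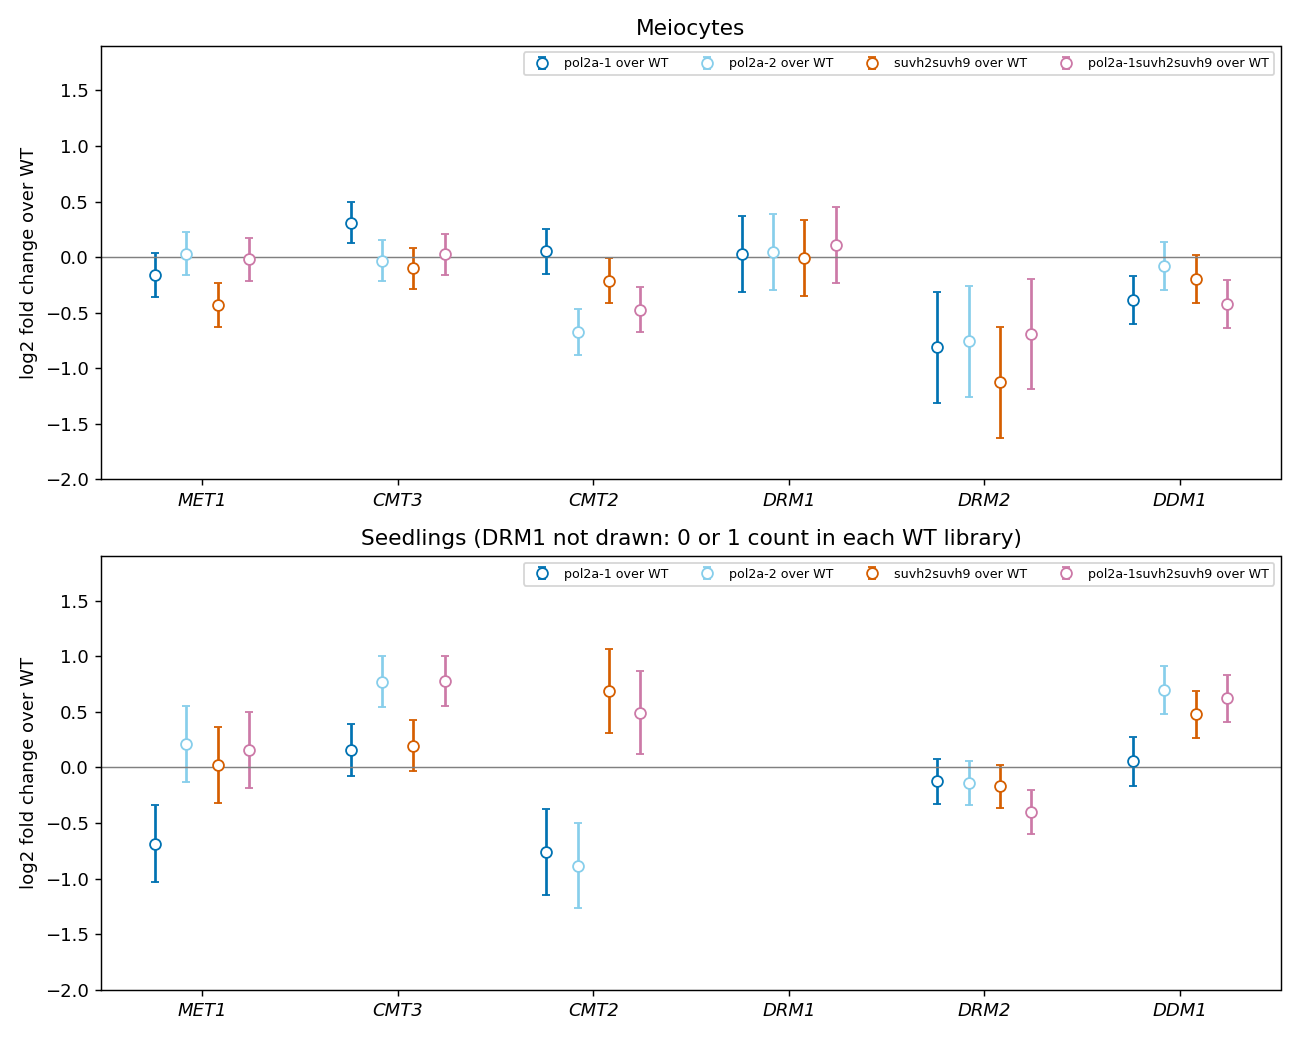
Log2 difference of each mutant from WT in meiocytes and in seedlings; points are edgeR estimates, bars are 1 SE and filled points have adjusted p under 0.05. No point drawn is filled, and seedling CMT3 reaches 0.78 in the triple mutant; DRM1 is left out of the seedling panel, where WT held 1 count.

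In seedlings CMT3 and DDM1 were higher in pol2a-2 and in the triple mutant, and MET1 was lowest in pol2a-1. CMT2 was higher in suvh2suvh9 and the triple mutant and lower in pol2a-1 and pol2a-2. With all 10 libraries, the filter on low counts and no gene length offset, none of these differences passed edgeR's test. Several passed with a gene length offset or with only the groups compared, as given below. With both pol2a-2 libraries left out, a setting chosen after seeing the data, several did too. By edgeR 0 of 6 passed in pol2a-1 (0.0269% of features), 1 in pol2a-2 (2.62%), 0 in suvh2suvh9 (10.9%) and 0 in the triple mutant (13.3%). At an unadjusted p under 0.05 the counts were 0, 4, 1 and 3, against 15.4, 21.4, 26.1 and 28.4% of features. DESeq2 called 0, 2 (CMT3 and DRM1), 0 and 1 (CMT3), where it called 0.628, 4.89, 11.7 and 14.2% of features. With a gene length offset 4.62% of features passed in pol2a-2, 14.5% in suvh2suvh9 and 17.4% in the triple mutant. With only the groups compared the shares were 6.93% in pol2a-1, 0.625% in pol2a-2, 17.3% in suvh2suvh9 and 26.6% in the triple mutant. Separation of libraries from WT, given below, was not counted over all features. The suvh2suvh9 and triple mutant libraries also differed from WT in chloroplast share, and the part of library composition in their values was not tested.

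CMT3 had 34.9 and 60.8 CPM in pol2a-2 seedlings and 43.8 and 45.5 CPM in triple mutant seedlings, against 25.2 and 27.7 CPM in WT seedlings. All 4 mutant libraries lay above both WT libraries, while pol2a-1 (34.0 and 23.9 CPM) overlapped WT and suvh2suvh9 (31.3 and 29.1 CPM) lay just above it. The log2 difference was 0.78 ± 0.23 in the triple mutant (edgeR adjusted p = 0.0517; DESeq2 0.0179) and 0.77 ± 0.23 in pol2a-2 (edgeR 0.106; DESeq2 0.0407). Without pol2a-2 replicate 1, the pol2a-2 value was 1.09 (edgeR adjusted p = 0.0124), and without replicate 2 it was 0.38 (0.181). Without both pol2a-2 libraries the triple mutant's value was 0.78 with adjusted p = 0.00597. With a gene length offset CMT3 passed in the triple mutant (0.85, edgeR adjusted p = 0.00442) and in pol2a-2 (0.92, 0.0105). With only the groups compared it passed in the triple mutant (0.78, 0.0016) and not in pol2a-2.

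DDM1 had 17.9 and 30.5 CPM in pol2a-2 seedlings, 20.7 and 18.5 CPM in suvh2suvh9 seedlings and 21.5 and 21.2 CPM in triple mutant seedlings, against 13.6 and 14.7 CPM in WT seedlings. Every one of these libraries lay above WT, and pol2a-1, at 16.0 and 12.7 CPM, overlapped it. The log2 differences were 0.62 ± 0.21 in the triple mutant (edgeR adjusted p = 0.0849), 0.70 ± 0.21 in pol2a-2 (0.112) and 0.48 ± 0.21 in suvh2suvh9 (0.186). The pol2a-2 value was 1.00 without its replicate 1 (adjusted p = 0.0121) and 0.32 without its replicate 2 (0.233). With both pol2a-2 libraries left out the values were 0.62 in the triple mutant (adjusted p = 0.0114) and 0.48 in suvh2suvh9 (0.0391). With a gene length offset DDM1 passed in pol2a-2 (0.80, edgeR adjusted p = 0.0234) and the triple mutant (0.68, 0.0154), and not in suvh2suvh9. With only the groups compared it passed in the triple mutant (0.62, 0.00661) and suvh2suvh9 (0.48, 0.0479), and not in pol2a-2.

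CMT2 had 62.3 and 63.1 CPM in suvh2suvh9 seedlings and 45.2 and 63.2 CPM in triple mutant seedlings, 27.7 and 17.6 CPM in pol2a-1 seedlings and 11.5 and 33.3 CPM in pol2a-2 seedlings, against 42.6 and 35.5 CPM in WT seedlings. The mutants thus fell on both sides of WT without overlapping it. Its log2 differences were 0.69 ± 0.38 in suvh2suvh9 (edgeR adjusted p = 0.286), 0.49 ± 0.38 in the triple mutant (0.436), -0.76 ± 0.39 in pol2a-1 (0.36) and -0.88 ± 0.38 in pol2a-2 (0.22). The pol2a-2 value was -1.79 without its replicate 2 (adjusted p = 0.00308) and -0.34 without its replicate 1 (0.526). Without both pol2a-2 libraries the suvh2suvh9 value was 0.68 (adjusted p = 0.0417). It also passed with a gene length offset (0.73, edgeR adjusted p = 0.0418) and with only the groups compared (0.69, 0.0121). The pol2a-1 value passed with only the groups compared (-0.76, 0.0298), and that of the triple mutant passed under no alternative. The libraries with high CMT2 are those with 0.0215 to 0.0443% of chloroplast counts, and the part of library composition in this pattern was not tested.

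MET1 had 33.6 and 25.0 CPM in pol2a-1 seedlings against 47.4 and 48.6 CPM in WT seedlings, both mutant libraries lower. The log2 difference was -0.69 ± 0.35 (edgeR adjusted p = 0.361). MET1 passed there with the pol2a-2 libraries left out (-0.68, 0.0377) and with only the groups compared (-0.68, 0.0198). In pol2a-2 seedlings it had 31.5 and 87.0 CPM, 1 library below and 1 above WT, and it is there that replicates decide the sign: 0.21 ± 0.34 with both (edgeR adjusted p = 0.756), 0.75 without replicate 1 (0.0523) and -0.63 without replicate 2 (0.0422), which passed in the opposite direction. In suvh2suvh9 (52.4 and 44.8 CPM) and the triple mutant (49.3 and 56.0 CPM) MET1 stayed within 0.02 to 0.15 of WT on the log2 scale. DRM2 had 9.09 and 8.19 CPM in triple mutant seedlings against 10.5 and 12.7 CPM in WT seedlings (-0.40 ± 0.20, edgeR adjusted p = 0.217), and in the other mutants it stood between -0.17 and -0.13.

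DRM1 was seen in seedlings mainly in pol2a-2, with 11 and 37 counts, and in the triple mutant, with 7 and 2 counts, against 0 and 1 in WT, 0 and 1 in suvh2suvh9 and 0 and 0 in pol2a-1. The ratio of pooled levels to WT was 76.9 in pol2a-2 (95% exact interval 13.2 to 3098, counting error only) and 10.9 in the triple mutant (1.51 to 477). The edgeR difference in pol2a-2 was 5.67 ± 1.14 (adjusted p = 0.0389), and the gene passed the filter on low counts in seedlings only through pol2a-2, so this call is no independent support. Its adjusted p was 0.0712 with a replicate block and 0.0783 with only the groups compared. Leaving out 1 library ended the call at 0.29 (WT replicate 1), 0.14 (WT replicate 2), 0.0503 (pol2a-2 replicate 2), 0.0608 and 0.0615 (suvh2suvh9 replicates 1 and 2) and 0.0805 and 0.0793 (triple mutant replicates 1 and 2). Even in pol2a-2 seedlings the level, 1.16 ± 0.577 CPM, was far below the 38.3 ± 11.4 CPM of pol2a-2 meiocytes (SD, n = 2).

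Of 10 meiocyte markers, DMC1, the gene of the meiotic strand-exchange protein, passed in pol2a-2 seedlings against WT (2.05 ± 0.16, edgeR adjusted p = 0.000517) and in triple mutant seedlings (1.01 ± 0.16, 0.00414), and no other did. Of all features 2.62% passed in pol2a-2 seedlings and 13.3% in triple mutant seedlings. The 10 meiocyte markers summed to 43.9 to 44.5 CPM in pol2a-2 seedlings and 24.6 to 27.5 CPM in triple mutant seedlings, against 14.0 to 16.6 CPM in WT seedlings, and DMC1 had 37.0 and 31.7 CPM in pol2a-2 and 16.3 and 14.9 CPM in the triple mutant, against 7.66 and 8.09 CPM in WT. Without DMC1, left out after seeing the data, the other 9 summed to 7.51 and 12.2 CPM in pol2a-2 seedlings and 11.2 and 9.71 CPM in triple mutant seedlings. In WT seedlings they summed to 6.30 and 8.46 CPM, so the pol2a-2 libraries overlapped WT. The part of these in the DRM1 counts was not tested.

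The triple mutant was compared with its parents in seedlings. Against pol2a-1, 0 of 6 genes passed by edgeR (10.7% of features), 4 had an unadjusted p under 0.05 (28.5%) and DESeq2 called 1, CMT2. The values of the 4 were 0.84 ± 0.35 for MET1 (edgeR adjusted p = 0.152), 1.25 ± 0.39 for CMT2 (0.0678), 0.62 ± 0.23 for CMT3 (0.114) and 0.57 ± 0.22 for DDM1 (0.122). All 4 genes had both triple mutant libraries above both pol2a-1 libraries, but the share of all features separated in this way was not counted. With the pol2a-2 libraries left out, all 4 passed (edgeR adjusted p of 0.0048, 0.00359, 0.0185 and 0.0204 in that order), where 22.2% of features passed. With only the groups compared 4 genes passed too, where 19.4% of features passed. Chloroplast genes took 0.0215 and 0.0443% of counts in the triple mutant libraries and 2.32 and 2.42% in those of pol2a-1. Genotype and library composition therefore cannot be told apart in this comparison. Against suvh2suvh9, 0 passed by edgeR (0.247%), 1 had an unadjusted p under 0.05 (11.6%) and DESeq2 called 0. Between the POL2A mutants, 0 passed (0.386%), 4 had an unadjusted p under 0.05 (11.2%) and DESeq2 called 0. Non-additivity gave 0 calls (0.00897%), 0 at an unadjusted p under 0.05 (8.32%) and 0 by DESeq2.

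Whether a mutation acted differently in meiocytes than in seedlings was tested as the interaction of tissue and genotype. It passed for 0 of 6 genes in pol2a-1 (0.508% of features), 1 in pol2a-2 (1.02%), 0 in suvh2suvh9 (0.926%) and 0 in the triple mutant (3.73%). Unadjusted p under 0.05 was reached by 0, 3, 1 and 3 genes, against 12.1, 13.9, 11.4 and 19.5% of features. DESeq2 called 0, 1, 0 and 1, where it called 1.81, 3.97, 3.07 and 8.97% of features. The gene in pol2a-2 was DRM1, at -5.61 ± 1.09 (edgeR adjusted p = 0.0203), which rests on the seedling counts given above; it was lost with only the groups compared (adjusted p = 0.146) and without WT seedling replicate 1 (0.18) or 2 (0.0672) or pol2a-2 seedling replicate 2 (0.0687). For CMT2 the interaction was 0.96 ± 0.47 in pol2a-1, -0.91 ± 0.46 in suvh2suvh9 and -0.98 ± 0.46 in the triple mutant, none past the threshold (edgeR adjusted p = 0.427, 0.491 and 0.26). DDM1 in the triple mutant was at -1.05 ± 0.32 (edgeR adjusted p = 0.0782; 0.0374 with the pol2a-2 seedling libraries left out).

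CMT3, DDM1 and MET1 in seedlings were set beside genes of DNA replication. Of 12 S-phase genes, 12 were higher in WT meiocytes than in WT seedlings, among them the clamp gene PCNA2 (3.19 ± 0.20) and the helicase gene MCM4 (2.60 ± 0.19). In that comparison 76.8% of the 24418 features passed, 8585 higher and 10172 lower. In pol2a-2 seedlings 3 of the 12 passed, where 2.62% of features passed. All 3 were higher: TSO2, a ribonucleotide reductase subunit (2.78 ± 0.21, edgeR adjusted p = 0.000455), PCNA1 (0.88 ± 0.17) and PCNA2 (0.78 ± 0.16). In triple mutant seedlings, where 13.3% of features passed, TSO2 (2.33 ± 0.21, edgeR adjusted p = 0.00017), PCNA1 (0.68 ± 0.16) and MCM3 (0.58 ± 0.16) were higher. TSO2 alone carried 392 to 439 CPM of the pol2a-2 sums and was left out after seeing the data. The 11 genes left include the mutated POL2A, which had 30.6 and 65.9 CPM in pol2a-2 seedlings. These 11 genes summed to 272 and 374 CPM in pol2a-2 seedlings and 322 and 298 CPM in triple mutant seedlings, against 246 and 271 CPM in WT seedlings. They summed to 306 and 292 CPM in suvh2suvh9 seedlings and 248 and 203 CPM in pol2a-1 seedlings. The libraries of pol2a-2, suvh2suvh9 and the triple mutant were above both WT libraries, by little in pol2a-2 replicate 1. The pol2a-2 library with the higher sum, replicate 2, was the one with the higher MET1, CMT3 and DDM1. This was not particular to S-phase genes. Replicate 2 was also higher for CMT2, for 19 genes of RNA-directed DNA methylation (395 against 225 CPM) and for 4 demethylases (157 against 32.1 CPM). It was lower for 9 photosynthesis genes (51270 against 56180 CPM), 6 histone genes (355 against 404 CPM), and tapetum and meiocyte markers.

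**Figure D5:**
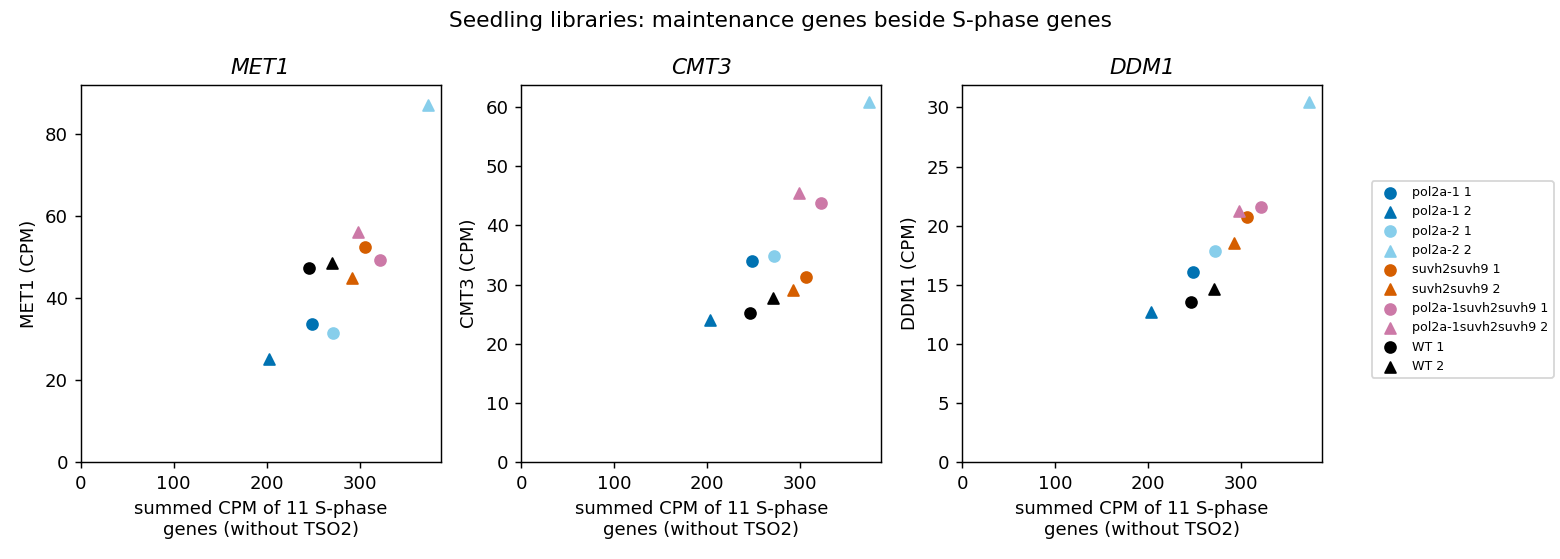
CPM of MET1, CMT3 and DDM1 in the 10 seedling libraries against the summed CPM of 11 S-phase genes (without TSO2, with the mutated POL2A). Colours are genotypes, circles replicate 1 and triangles replicate 2. The pol2a-2 libraries lie at 272 and 374 CPM of S-phase genes, with 31.5 and 87.0 CPM of MET1.

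Of the genes that work beside the methyltransferases, most maintenance partners were higher in meiocytes too. Among all 24418 features of WT meiocytes over seedlings 76.8% passed, 8585 higher and 10172 lower. Of 9 tested partners 7 were higher and 0 lower: VIM3, of the family that loads MET1 onto hemimethylated DNA (164 and 161 CPM in meiocytes, 11.5 and 14.1 CPM in seedlings; 3.36 ± 0.19), the histone deacetylase HDA6 (3.58 ± 0.21), the H3K9 methyltransferases SUVH5 (3.87 ± 0.28) and SUVH6 (1.82 ± 0.25), and VIM1, VIM2 and VIM4. Of 19 genes of RNA-directed DNA methylation, 10 were higher and 5 lower. CHR40, a remodeller that brings RNA polymerase IV to chromatin, had 78.3 and 65.0 CPM in WT meiocytes and 0.987 and 1.34 CPM in WT seedlings (5.63 ± 0.27), and the argonaute AGO6 was at 3.70 ± 0.29. NRPD1, the largest subunit of polymerase IV, was lower at -2.56 ± 0.66, as were CLSY1 at -1.87 ± 0.48 and the siRNA-binding partner IDN2 at -1.82 ± 0.25.

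Of 4 tested methyltransferase relatives 2 were lower and 0 higher in WT meiocytes than in WT seedlings, among them DRM3, the catalytically inactive partner of DRM2 (11.3 and 8.3 CPM in meiocytes, 24.7 and 20.4 CPM in seedlings; -1.53 ± 0.28). Of 4 demethylases DML3 (-5.35 ± 1.02) and DML2 (-2.83 ± 0.62) were lower and 0 were higher, although the 4 summed to 214 and 164 CPM in WT meiocytes, against 129 and 116 CPM in WT seedlings. The methyl donor cycle, which makes S-adenosylmethionine, had 2 of 10 genes higher and 7 lower, with MAT4 at 6.9 and 11.2 CPM in meiocytes against 439 and 477.5 CPM in seedlings. Of 6 linker and heterochromatin histone genes 3 were higher and 3 lower. Since 76.8% of all features passed in this comparison, how many genes of a list passed says little of that list.

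Against WT, few of these genes passed in the mutants. In meiocytes VIM4 was higher in pol2a-1 (41.6 and 40.8 CPM against 7.77 and 2.44 CPM in WT; 3.05 ± 0.43, edgeR adjusted p = 0.00333) and in pol2a-2 (75.8 and 113 CPM; 4.16 ± 0.44, edgeR adjusted p = 0.000349). It was also higher in seedlings of pol2a-2 (4.00 ± 0.62), suvh2suvh9 (4.92 ± 0.59) and the triple mutant (6.17 ± 0.57). For VIM4, 58.3% of its 100-base exonic windows occur again in the genome, so its counts are uncertain, whereas 0% of those of VIM2 and 1.07% of those of VIM3 do. VIM2 was higher in pol2a-2 seedlings (1.39 ± 0.30, edgeR adjusted p = 0.0414) and triple mutant seedlings (1.77 ± 0.29, 0.00462), and VIM3 in pol2a-2 seedlings (26.6 and 31.1 CPM against 11.5 and 14.1 CPM in WT seedlings, 0.0124). In triple mutant seedlings, where 13.3% of all features passed, 3 of 10 methyl donor genes were higher, SAHH2 (0.75 ± 0.15), MAT4 (0.52 ± 0.11) and MAT3 (0.46 ± 0.12). Of 19 genes of RNA-directed methylation AGO6 was higher there (1.14 ± 0.30) and the mutated SUVH2 and SUVH9 were lower. In suvh2suvh9 seedlings ROS1, the demethylase whose expression depends on DNA methylation of its own promoter, had 6.50 and 1.57 CPM against 38.4 and 34.6 CPM in WT seedlings (-3.16 ± 0.74, edgeR adjusted p = 0.0238).

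The profiles most like each gene over the 10 group means were those of other genes that differ between tissues: MSH7, a mismatch repair gene, for MET1 (Pearson r = 0.997), the mitotic kinase gene CDKB1;1 for CMT3 (0.996), ETL1 for DDM1 (0.997) and AT4G32510 for DRM1 (0.997). For DRM2 it was MGT6 (0.987) and for CMT2 AT1G08910 (0.976). Among the 6 genes, MET1 and CMT3 reached r = 0.97, MET1 and DDM1 0.99, and MET1 and CMT2 0.52. The 10 points fall into 2 tissues, and CMT3 was number 2597 of 22144 genes in likeness to MET1. With the tissue mean subtracted, over 20 libraries, r was 0.68 for MET1 and DDM1, 0.59 for MET1 and CMT3, 0.65 for CMT3 and DDM1 and -0.02 for CMT2 and DRM2; libraries of a group share their genotype and each pair of genes shares library depth. The genes most like them on that scale were AT4G16630 for MET1 (0.908), SEC3A for CMT2 (0.969), ABAP1 for CMT3 (0.882), G6PD4 for DRM1 (0.937), ZPR1 for DRM2 (0.826) and AT3G57060 for DDM1 (0.923).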

How the data were processed

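Each library has a deposited file of raw read counts for genes and transposable elements. Per the submitters' processing notes, the tools were featureCounts 2.0.0, STAR 2.7.9a, cutadapt 3.4 and DESeq2 1.30.1, with build TAIR10. The TruSeq kit of the labels' protocols does not record strand, and the sources used here do not say how reads with multiple hits were counted. Exonic lengths in the files equalled those of TAIR10.1 for 99.4% of nuclear genes, including all 6 members, so that annotation gave coordinates and sequence.

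Tests used edgeR 4.0.16 and limma 3.58.1 in R 4.3.3, and levels were computed in Python 3.11.15 with pandas 2.3.3 and scipy 1.17.1. After filterByExpr (minimum count 10) and TMM scaling, 21214 features in meiocytes and 22297 in seedlings were fitted, 10 libraries per tissue, and 24418 in a fit of all 20 for tissue differences and interactions. The test was the two-sided quasi-likelihood F test adjusted over all features by Benjamini-Hochberg, and a feature with adjusted p under 0.05 was called. SE and 95% intervals are of log2 differences, and n is 2 libraries per group throughout. These intervals are a normal approximation from the SE and are narrower than the F test implies. Where the libraries of 2 groups are said not to overlap, the share of all features separated in that way was not counted. Exact intervals and floors of 3 counts cover counting error only, since reads carried no molecular identifiers. Samples were grouped by title. Scripts were tested on simulated data.

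The members and the gene lists were chosen with earlier results of these data known. The genes named beside the members were those of fixed lists past the threshold, with the 3 genes most like each member. Alternatives were DESeq2 1.42.0, DESeq2 size factors, library totals, no filter, a gene length offset and a replicate block. Others were only the groups compared, all 20 libraries in 1 fit, and each library, the organellar genes or the transposable elements left out. For pol2a-1 over WT, the pol2a-2 libraries were also joined with pol2a-1, as their genotype field reads. Joined, 0 of 6 genes were called in meiocytes (0.283% of features) and 0 in seedlings (0.0269%). Leaving out both pol2a-2 seedling libraries was added after seeing the data, as were the sums without TSO2 and without DMC1.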

Additional observations from a re-analysis of the deposited data

Results flagged for a closer look

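DRM1 is the gene whose response to a mutation differed between the tissues by the test of the difference itself. In pol2a-2 the tissue interaction was -5.61 ± 1.09 on the log2 scale (edgeR adjusted p = 0.0203). DRM1 had 46.4 and 30.2 CPM in pol2a-2 meiocytes against 22.2 and 47.3 CPM in WT meiocytes, which overlap, and 11 and 37 counts in pol2a-2 seedlings against 0 and 1 counts in WT seedlings. The seedling side of this value is 48 pooled counts in pol2a-2 against 1 in WT, the same counts as in the seedling comparison, so the 2 calls are not independent. Its value was -5.60 (adjusted p = 0.146) with only the groups compared in the fit, -4.67 (0.18) without WT seedling replicate 1, -7.59 (0.0672) without WT seedling replicate 2 and -4.97 (0.0687) without pol2a-2 seedling replicate 2, and none of these passed. DMC1, a meiocyte marker, had 37.0 and 31.7 CPM in pol2a-2 seedlings against 7.66 and 8.09 CPM in WT seedlings, and its part in this value was not tested.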

How the results depend on the processing

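Of 150 log2 differences of the 6 genes, 29 were called and 24 of these kept their call under every alternative run; of 121 uncalled ones, 99 were called under none, and 42 changed sign at least once. The count of called genes moved by over 1.5 times in 10 of 25 comparisons and by 1 gene in 4 others, meiocytes over seedlings in WT (4 to 6), pol2a-2 (5), suvh2suvh9 (6) and the triple mutant (4). In seedlings, pol2a-1 over WT gave 2 without the filter and 2 with only the groups compared, and 0 to 1 with a library left out; pol2a-2 over WT gave 4, 0 and 0 to 3 under the same settings; suvh2suvh9 over WT 1, 2 and 0 to 2; the triple mutant over WT 2, 2 and 0 to 2; the triple mutant over pol2a-1 4, 4 and 0 to 4; and pol2a-2 over pol2a-1 4 without the filter and 0 to 3 with a library left out. DESeq2 gave 2 for pol2a-2 over WT, 1 for the triple mutant over WT and 1 over pol2a-1, and 1 for pol2a-2 over pol2a-1 in meiocytes. The length offset gave 3 for pol2a-2 over WT, 1 for suvh2suvh9, 2 for the triple mutant and 1 for it over pol2a-1, where all 20 libraries in 1 fit also gave 1. Without both pol2a-2 seedling libraries the counts were 1 in pol2a-1, 2 in suvh2suvh9, 2 in the triple mutant and 4 for it over pol2a-1, where 4.82, 17.7, 21.0 and 22.2% of features passed. The triple mutant over pol2a-1 in meiocytes gave 1 with only the groups compared. The interaction in pol2a-2 gave 0 with only the groups compared and 0 to 1 with a library left out, and that in the triple mutant gave 1 without the filter, by DESeq2, with the offset, with only the groups compared and without the pol2a-2 seedlings (3.91% of features), and 0 to 1 with a library left out. MET1 in pol2a-2 seedlings over WT was 0.75 without pol2a-2 replicate 1 and turned to -0.63 without replicate 2 (adjusted p = 0.0422). DRM2 in the triple mutant, meiocytes over seedlings, was -0.79 with library totals (adjusted p = 0.0727). The cause was not tested.

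Same-numbered replicates deviated together with r of -0.18 to 0.22, which does not settle whether some of them shared a batch. Under the replicate block the count for pol2a-2 over WT in seedlings was 0 (DRM1 5.61, adjusted p = 0.0712), and no other count moved. With 2 libraries a group, an uncalled difference does not show that a gene was unchanged, and 0 to 1 DRM1 counts limit folds in seedlings.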
